A study of Homo sapiens with 18 samples.

Results

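The ADAM and ADAMTS proteases were followed in A549, an adenocarcinoma line from human lung, under TGFβ and after silencing of the atypical protein kinase C isoforms. A gene was a member if its only symbol in the probe annotation was ADAM or ADAMTS and a number, with nothing after it. This gave 38 genes of 18377 tested, 21 ADAM and 17 ADAMTS, each with 1 single-symbol probe set. Relatives named ADAMTSL, ADAMDEC1 and symbols with further letters such as ADAM3A and ADAM20P1 fell just outside. ADAM7, ADAMTS7 and ADAMTS15 were not analysed here. ADAM5 and ADAM6 are annotated as transcribed pseudogenes and were kept because the rule takes them.

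The cells were A549 grown in 10% serum and transfected with siControl, a control siRNA, or with siPKCiz, which targets PKCiota and PKCzeta. Cells of both arms were serum starved. They were left untreated or given 250 pM TGFβ for 1 h, washed, and kept in 0.2% serum for another 7 h or 23 h, so that RNA was taken at 8 h or 24 h, counted from when TGFβ was added. There were 6 groups of 3 biological replicates, 18 whole-transcript arrays in all, and no harvest time is labelled for untreated cells. All of the groups are 1 cell line, transfected and serum starved, and the effect of silencing 1 isoform alone was not measured.

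ADAMs are membrane-anchored metalloproteases with a prodomain, a zinc-dependent catalytic domain and a disintegrin domain. They cut the ectodomains of growth factors, cytokine receptors and adhesion proteins off the cell surface, and several members have lost the catalytic residues and act in adhesion or fertilization. ADAMTS enzymes are secreted, carry thrombospondin repeats in place of the membrane anchor, and cut matrix proteins such as proteoglycans and procollagens. TGFβ drives the epithelial to mesenchymal transition in A549 cells, in which adhesion proteins and matrix are remodelled, and atypical PKCs act in epithelial polarity.

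The promoters of 4 members are shown because the results turn on these genes: ADAM19 and ADAMTS6, which were higher after TGFβ, and ADAM17 and ADAM10, which differed in opposite directions between the siRNA arms. Each runs 5′ to 3′ from 250 bases before to 50 bases after the annotated RefSeq start (GRCh38.p14, minus strand in each case). Capitals mark matches, on either strand, to a CAGA box (CAGACA, bound by SMAD3 and SMAD4), an AP-1 site (TGANTCA), an E-box of the type bound by SNAI factors (CAGGTG) or a GC box (GGGCGG).
ADAM19, chr5:157575726-157576025: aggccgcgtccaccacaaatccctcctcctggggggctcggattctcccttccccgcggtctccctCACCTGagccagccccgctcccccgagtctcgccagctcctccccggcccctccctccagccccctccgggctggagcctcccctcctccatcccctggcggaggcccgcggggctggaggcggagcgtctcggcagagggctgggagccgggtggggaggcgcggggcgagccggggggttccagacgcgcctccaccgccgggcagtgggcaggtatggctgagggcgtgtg
ADAMTS6, chr5:65481871-65482170: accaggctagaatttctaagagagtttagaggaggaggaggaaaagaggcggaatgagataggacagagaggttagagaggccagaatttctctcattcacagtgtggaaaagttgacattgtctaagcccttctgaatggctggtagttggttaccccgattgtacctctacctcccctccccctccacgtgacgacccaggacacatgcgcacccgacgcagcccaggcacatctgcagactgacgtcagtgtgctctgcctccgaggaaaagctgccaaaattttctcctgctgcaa
ADAM17, chr2:9555781-9556080: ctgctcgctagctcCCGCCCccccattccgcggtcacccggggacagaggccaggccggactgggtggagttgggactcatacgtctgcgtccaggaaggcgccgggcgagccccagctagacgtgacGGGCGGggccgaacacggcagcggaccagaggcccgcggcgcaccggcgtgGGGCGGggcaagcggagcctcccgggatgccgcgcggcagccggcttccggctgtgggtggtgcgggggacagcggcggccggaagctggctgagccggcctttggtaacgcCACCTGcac
ADAM10, chr15:58749658-58749957: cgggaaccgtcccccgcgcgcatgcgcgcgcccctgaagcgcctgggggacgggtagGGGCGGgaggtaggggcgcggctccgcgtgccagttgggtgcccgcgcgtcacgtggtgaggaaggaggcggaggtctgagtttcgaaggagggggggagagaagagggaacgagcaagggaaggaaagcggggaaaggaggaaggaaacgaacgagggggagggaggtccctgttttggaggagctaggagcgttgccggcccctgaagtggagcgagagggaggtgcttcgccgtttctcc
The ADAM19 window held 1 E-box, 184 bases before the start, and no match to the other motifs. The ADAMTS6 window held none of the 4 motifs. The ADAM17 window held 3 GC boxes and 1 E-box, and the ADAM10 window held 1 GC box. The 4 motifs do not overlap in these windows. Promoters were matched for 23 of the 38 members. Of these, 3 held a CAGA box (13.0%, against 16.9% of 35116 promoters of the same length), 1 an AP-1 site (4.35% against 7.71%), 7 the E-box (30.4% against 20.6%) and 17 a GC box (73.9% against 44.95%). For each matched member the first listed promoter was taken. The 35116 were not limited to 1 per gene or to the genes tested. The 2 sets are thus unlike, and the shares are read as no result about the members. A match is a stretch of letters and not a measured site.

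The arrays had median intensities from 156.1 to 160.7, and with 3 per group their number limits the precision. In siPKCiz, PRKCI, which encodes PKCiota, stood at 17.4% to 23.3% of its level on the same-numbered siControl array. PRKCZ, which encodes PKCzeta, was at 68.2% to 91.4% in replicate 1 and at 33.1% to 40.04% in replicates 2 and 3. Replicate 1 thus stands apart for PRKCZ but not for PRKCI, which was at 17.4% to 20.8% there. The siControl intensity of PRKCZ was also lower in replicate 1, at 265 untreated, 309 at 8 h and 302 at 24 h. In replicates 2 and 3 of siControl it was 398 to 490. Values without replicate 1 are therefore given beside the members' silencing results over the 3 conditions. The silencing results for genes of the other lists are given without this check. The keratins KRT8 and KRT18 had mean log2 intensities of 12.92 and 11.59. The alveolar markers NKX2-1, SFTPB and SFTPC lay at 6.08, 6.69 and 6.51, below the mean array median of 7.31, as did 5 of 5 endothelial markers and 3 of 4 measured leukocyte markers. Of 6 fibroblast markers 3 lay above it, and their summed log2 level was 9.92 to 10.10 untreated and 10.23 to 10.28 at 24 h in siControl, and 9.73 to 9.92 untreated and 10.21 to 10.35 at 24 h in siPKCiz. Their part in the results was not tested. Of the 38 members, 27 had a mean log2 intensity below the array median. On a dim probe set, background signal compresses differences. In bulk RNA, fewer cells of a type and less RNA per cell cannot be told apart.

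After TGFβ, 1 of the 38 members, ADAM19, rose strongly, and a few secreted ADAMTS enzymes rose by less at 24 h. A gene passed here at a limma adjusted p under 0.05. At 8 h in siControl 1 member rose and 0 fell, where 11.4% of all genes passed, 5.17% higher and 6.18% lower. At 8 h in siPKCiz 1 rose and 0 fell, where 6.48% of all genes passed, 3.13% higher and 3.35% lower. At 24 h in siControl 3 rose and 1 fell, 10.5% of the members, where 12.3% of all genes passed, 5.85% higher and 6.46% lower. At 24 h in siPKCiz 3 rose and 0 fell, 7.89% of the members, where 10.7% of all genes passed, 4.65% higher and 6.09% lower. In either direction the members' shares were at or below the background. By direction, 7.89% of members rose at 24 h in each arm, 3 genes of 38, which is above the shares of all genes that rose. Counts this small are read as no result about the family.

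ADAM19, a protease that sheds neuregulins and is made by mesenchymal and heart cushion cells, was the member with the largest response to TGFβ. In siControl its intensity was 1095, 1227 and 1427 in the untreated replicates 1 to 3, 3738, 3023 and 3401 at 8 h, and 3933, 4317 and 4215 at 24 h. Each TGFβ array lay above each untreated array. In siPKCiz it was 596, 816 and 965 untreated, 2857, 2178 and 2354 at 8 h, and 3869, 2739 and 3101 at 24 h. The groups again did not overlap with the untreated arrays. ADAM19 thus rose in siControl by 1.44 ± 0.16 log2 units at 8 h (SE, n = 3 per group; 2.72-fold; limma adjusted p = 1.16e-05) and by 1.74 ± 0.16 at 24 h (3.34-fold; adjusted p = 1.1e-06). In siPKCiz it rose by 1.66 ± 0.16 at 8 h (3.15-fold; adjusted p = 7.69e-06) and by 2.04 ± 0.16 at 24 h (4.12-fold; adjusted p = 3.3e-07). These 4 comparisons share their untreated arrays within an arm. Without replicate 1 the siPKCiz rises were 1.35 and 1.72, and the siControl rises 1.28 and 1.69.

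From 8 h to 24 h ADAM19 differed by 0.30 ± 0.16 in siControl (adjusted p = 0.429) and by 0.39 ± 0.16 in siPKCiz (adjusted p = 0.318), which did not pass.

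**Figure D1:**
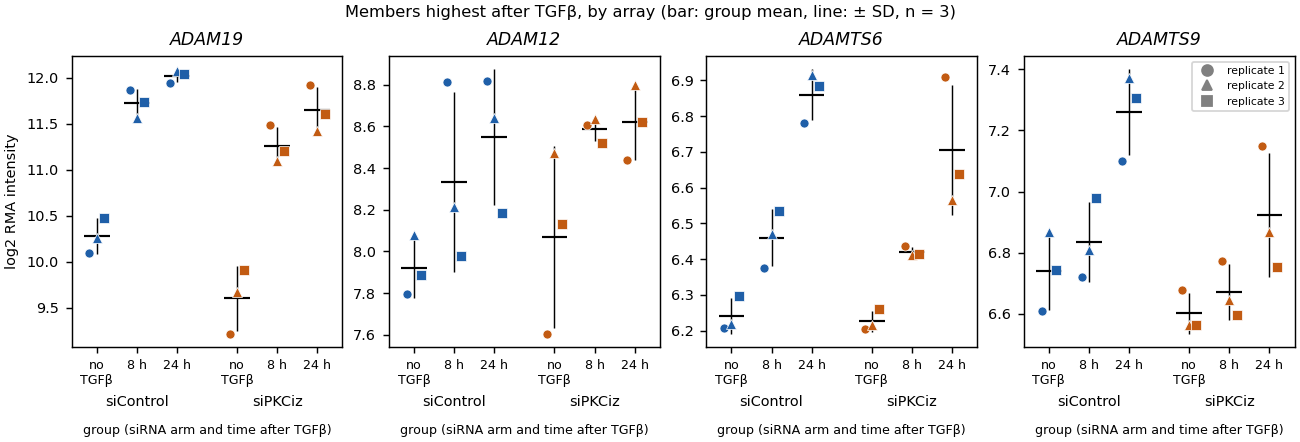
Log2 RMA intensity (y axis) of ADAM19, ADAM12, ADAMTS6 and ADAMTS9 in each array, by siRNA arm and time after TGFβ (x axis); bars are group means, lines ± SD over 3 replicates, symbols the replicate numbers. ADAM19 stands higher at 8 h and 24 h than untreated in both arms (means 10.28, 11.72 and 12.02 in siControl), whereas ADAMTS6 and ADAMTS9 have their highest group means at 24 h.

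Of the other 11 ADAMs in the list of known proteases, 0 passed at 8 h in either arm, and 1, ADAM15, passed at 24 h in siControl (limma; members of all roles at an unadjusted p under 0.05 numbered 3 and 4 at 8 h in siControl and siPKCiz). ADAM12, a protease that cuts IGF-binding proteins and is known from fibroblasts and placenta, had the second highest change. Its intensity in siControl was 222, 270.3 and 237 untreated, 450.3, 297 and 252 at 8 h, and 451, 399 and 291 at 24 h. In siPKCiz it was 195, 355 and 280.4 untreated, 389.9, 397 and 368 at 8 h, and 347, 446 and 394 at 24 h. The replicates spread widely, and in siControl the 8 h arrays overlapped with the untreated arrays. The change at 24 h was 0.63 ± 0.21 in siControl (adjusted p = 0.0569) and 0.55 ± 0.21 in siPKCiz (adjusted p = 0.104), and neither passed.

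ADAM15, which binds integrins through its disintegrin domain, was at 483, 599 and 687 in untreated siControl and at 449, 500.2 and 399 at 24 h. The groups overlapped by the untreated replicate 1. It fell by 0.38 ± 0.12 (1.31-fold; adjusted p = 0.0485). The call was lost without untreated replicate 2 or 3 or without replicate 1 or 3 at 24 h (adjusted p between 0.0876 and 0.221), and without replicate 2 or 3 of every group (-0.45 and -0.18; adjusted p = 0.191 and 0.565). It was also lost with 50 added before taking log2, written log2(value + 50), with trend and robust moderation and with only the compared arrays (adjusted p = 0.0501, 0.0511 and 0.119), and in 10 of 17 alternatives in all (adjusted p between 0.00565 and 0.565). In siPKCiz ADAM15 differed by -0.38 ± 0.12 at 24 h (adjusted p = 0.0577).

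Among the secreted enzymes the changes came at 24 h and were small. ADAMTS6, an enzyme linked to fibrillin microfibrils and heart development, had intensities of 73.9, 74.5 and 78.7 in untreated siControl, 83.04, 88.6 and 92.7 at 8 h, and 109.9, 121 and 118 at 24 h. In siPKCiz they were 73.7, 74.4 and 76.6 untreated, 86.7, 85.1 and 85.3 at 8 h, and 120.3, 94.7 and 99.7 at 24 h. No array of one condition overlapped with another condition of the same arm. ADAMTS6 rose at 24 h by 0.62 ± 0.082 in siControl (1.54-fold; adjusted p = 4.65e-05) and by 0.48 ± 0.082 in siPKCiz (1.39-fold; adjusted p = 0.000706). At 8 h it differed by 0.22 ± 0.082 in siControl (adjusted p = 0.103) and by 0.19 ± 0.082 in siPKCiz (adjusted p = 0.204). The intensities lie below the array median, and on the log2(value + 50) scale the 24 h changes were 0.40 and 0.31, still passing.

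ADAMTS9, a proteoglycanase that cuts versican and aggrecan, had intensities of 97.7, 117 and 107 in untreated siControl, 105, 112 and 126 at 8 h, and 137, 165 and 158 at 24 h. In siPKCiz they were 102, 94.5 and 94.6 untreated, 109, 100.1 and 96.8 at 8 h, and 142, 117 and 108 at 24 h. The 24 h arrays lay above the untreated arrays in both arms. The rise at 24 h was 0.52 ± 0.11 in siControl (1.43-fold; adjusted p = 0.0025), and in siPKCiz the difference was 0.32 ± 0.11 (adjusted p = 0.0591). The siControl call was lost without replicate 2 of every group (0.53; adjusted p = 0.0776) and without replicate 3 (0.50; adjusted p = 0.0712). The mean log2 intensity of ADAMTS9 over all arrays, 6.84, lies below the array median. On the log2(value + 50) scale the siControl change at 24 h was 0.37, still passing.

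ADAMTS6 and ADAMTS9 were the 2 members that passed between 8 h and 24 h in siControl, both higher at 24 h, by 0.40 ± 0.082 (adjusted p = 0.0134) and 0.42 ± 0.11 (adjusted p = 0.0408), where 2.41% of all genes passed, 1.31% higher and 1.1% lower. The ADAMTS6 call was lost without the 8 h replicate 1 or the 24 h replicate 2 (0.36 to 0.37; adjusted p between 0.0575 and 0.0602). The ADAMTS9 call was lost without the 8 h replicate 1 or 2 or the 24 h replicate 2 or 3 (adjusted p between 0.115 and 0.15). Both were also lost without replicate 2 or 3 of every group (adjusted p between 0.204 and 0.483) and with only the compared arrays (adjusted p = 0.0741 and 0.105). On the log2(value + 50) scale the changes were 0.27 for ADAMTS6 and 0.31 for ADAMTS9, still passing. In siPKCiz 0 of 38 members passed between the times (limma; 8 at an unadjusted p under 0.05), where 0.805% of all genes passed, 0.386% higher and 0.419% lower. ADAMTS19, an orphan enzyme expressed in heart valves and ovary, had intensities in siPKCiz of 53.8, 58.2 and 53.6 untreated and 73.9, 66.7 and 67.5 at 24 h, a rise of 0.33 ± 0.076 (adjusted p = 0.00787). The call was lost without the 24 h replicate 1 alone (0.28; adjusted p = 0.059) and without replicate 1, 2 or 3 of every group (0.26, 0.39 and 0.33; adjusted p = 0.0668, 0.0684 and 0.126). On the log2(value + 50) scale the change was 0.18. In siControl ADAMTS19 differed by 0.03 ± 0.076 at 24 h (adjusted p = 0.882), and limma's test of the difference between the arms gave 0.30 ± 0.11 (adjusted p = 1.00). Its signal was dim throughout.

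**Figure D2:**
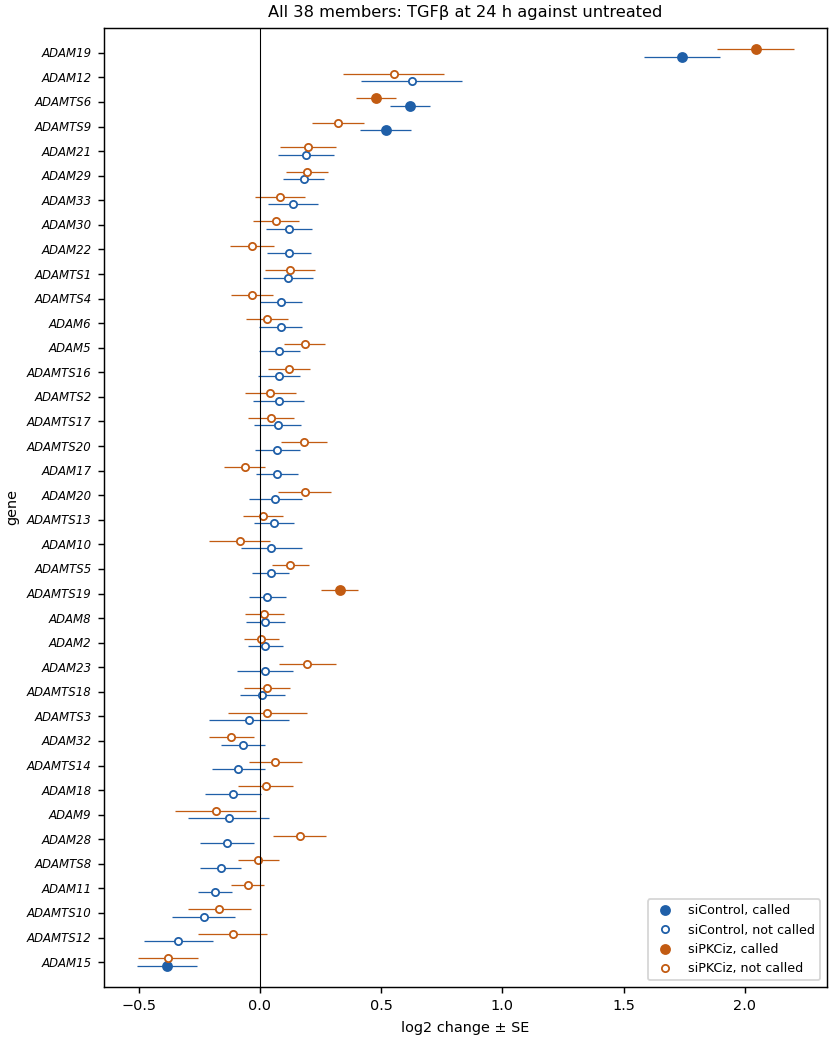
Log2 change ± SE (x axis) of each of the 38 members (y axis) at 24 h of TGFβ against untreated in siControl and siPKCiz; filled points passed at an adjusted p under 0.05. ADAM19 lies apart at 1.74 and 2.04, and of the others ADAM12, ADAMTS6 and ADAMTS9 have the next highest values in siControl, while most lie near 0.

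The median change at 24 h over the 38 members was 0.06 in siControl and 0.04 in siPKCiz, against -0.01 and -0.01 over all genes. By role at 24 h in siControl, the 12 known ADAM proteases had 1 risen and 1 fallen, the 6 proteoglycanases 1 risen, the 8 other ADAMTS 1 risen, and the 7 ADAMs held to lack protease activity and the 3 procollagen N-propeptidases (ADAMTS2, ADAMTS3 and ADAMTS14) 0 passed (limma). The procollagen enzymes lay between -0.09 and 0.08. The major sheddases ADAM10, which cuts Notch and cadherins, and ADAM17, which cuts TNF and EGF receptor ligands, differed by 0.05 ± 0.13 and 0.07 ± 0.085 and did not pass.

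Silencing of the atypical PKCs was compared over the mean of the 3 conditions. There 9 of 38 members were lower and 1 was higher in siPKCiz, where 8.17% of all genes were lower and 11.8% higher. In either direction 26.3% of members and 19.9% of all genes passed. The median difference over the 38 was -0.07 against -0.01 over all genes. In untreated cells 3 members were lower and 0 higher, where 3.58% of all genes passed, 1.45% lower and 2.12% higher. At 8 h 2 were lower and 1 higher, where 5.41% of all genes passed, 1.9% lower and 3.52% higher. At 24 h 2 were lower and 0 higher, where 3.19% of all genes passed, 1.68% lower and 1.51% higher.

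ADAM9, a widely expressed sheddase, had the largest difference. Its intensity in untreated cells was 7946, 10109 and 8610.02 in siControl against 6735, 5372 and 5129 in siPKCiz. The 8 h values were 6349.8, 8421 and 9112 in siControl against 6426, 5487 and 4969, and at 24 h they were 6599, 9559 and 8395 against 6268, 4441 and 4559.9. In replicate 1 the arms lay close together at 8 h and 24 h, and in replicates 2 and 3 they lay well apart. The mean difference was -0.60 ± 0.096 (1.52-fold lower; adjusted p = 0.000235), and -0.86 without replicate 1. Without replicate 2 it was -0.47 (adjusted p = 0.0607) and without replicate 3 -0.49 (adjusted p = 0.0554). ADAM9 was lower by condition too, by 0.63 ± 0.17 untreated (adjusted p = 0.0424) and 0.69 ± 0.17 at 24 h (adjusted p = 0.0289), and it differed by -0.49 ± 0.17 at 8 h (adjusted p = 0.0929). Both calls were lost when any array of replicate 2 or 3 of the groups compared was left out (-0.54 to -0.66; adjusted p between 0.098 and 0.176) or all arrays of that number (adjusted p between 0.417 and 0.597). The untreated call was also lost with quantile normalization (adjusted p = 0.0599), and the 24 h call with only the compared arrays (adjusted p = 0.0775). PRKCZ was also less reduced in replicate 1, and its part in this pattern was not tested.

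ADAM17 was lower in siPKCiz on each array. Its intensity in untreated cells was 2160.1, 2451 and 2359.7 in siControl against 1898, 1893 and 1859.9 in siPKCiz. The 8 h values were 2172, 2345 and 2306 against 1918, 1674 and 1751, and at 24 h 2239, 2533 and 2549.7 against 2028, 1692 and 1707. The highest of 9 siPKCiz arrays, 2028, lay below the lowest of 9 siControl arrays, 2160.1. ADAM17 was lower by 0.36 ± 0.049 (1.29-fold lower; adjusted p = 4.75e-05), by 0.46 without replicate 1, and it passed under each of 28 alternatives (adjusted p up to 0.0286). By condition it was lower at 8 h by 0.35 ± 0.085 and at 24 h by 0.43 ± 0.085 (adjusted p = 0.0218 and 0.00838), and at -0.30 ± 0.085 untreated it did not pass (adjusted p = 0.0589). The call at 8 h was lost when any array of replicate 2 or 3 was left out (adjusted p between 0.0773 and 0.106), and the call at 24 h without siControl replicate 3 or siPKCiz replicate 2 or 3 (adjusted p between 0.052 and 0.0597). Both were also lost without replicate 2 or 3 of every group (adjusted p between 0.356 and 0.46) and with only the compared arrays (adjusted p = 0.0556 and 0.0762).

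ADAM10 was the 1 member that was higher. Its intensity in untreated cells was 6553, 4941 and 4228 in siControl against 6368, 7276 and 6804 in siPKCiz, so that the siControl replicate 1 lay within the range of siPKCiz. The 8 h values were 4769.8, 4879 and 4492 against 6114, 6941 and 6676, and at 24 h 5391, 5038 and 5550.5 against 5653, 6292 and 7442. The arms did not overlap at 8 h or at 24 h. The mean difference was 0.38 ± 0.072 (1.30-fold higher; adjusted p = 0.000978), and 0.51 without replicate 1. It was 0.34 without replicate 2 (adjusted p = 0.0945) and 0.30 without replicate 3 (adjusted p = 0.061). At 8 h alone it was 0.48 ± 0.13 (adjusted p = 0.0325), a call lost when any array of replicate 2 or 3 was left out (adjusted p between 0.0802 and 0.124) or all arrays of that number (adjusted p = 0.436 and 0.282).

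**Figure D3:**
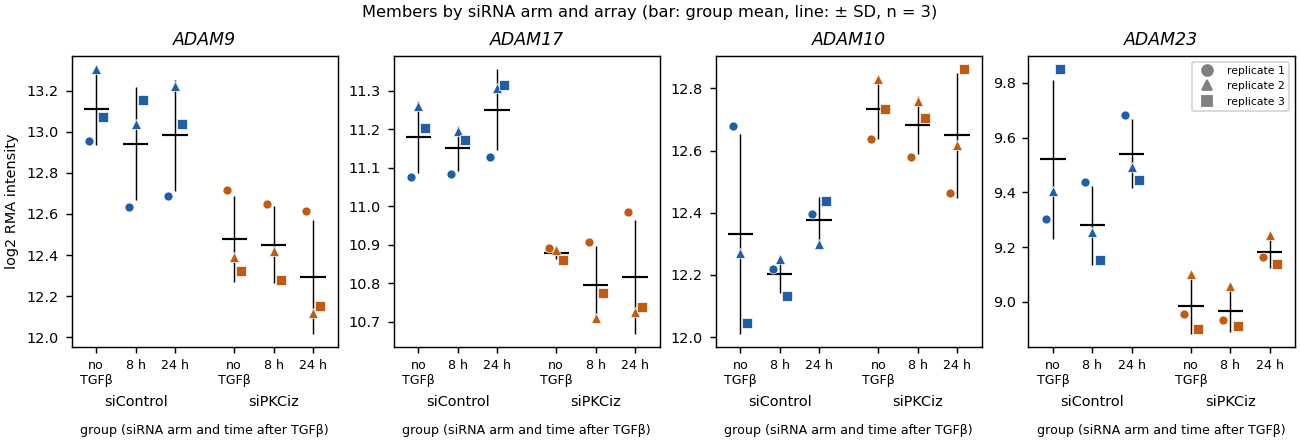
Log2 RMA intensity (y axis) of ADAM9, ADAM17, ADAM10 and ADAM23 in each array, by siRNA arm and time after TGFβ (x axis); bars are group means, lines ± SD over 3 replicates, symbols the replicate numbers. ADAM17 is lower and ADAM10 mostly higher in siPKCiz, and for ADAM9 the replicate 1 arrays of the arms lie close together after TGFβ.

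ADAM19 was also lower in siPKCiz, by 0.51 ± 0.091 over the 3 conditions (1.42-fold lower; adjusted p = 0.000679; 0.54 without replicate 1). Without replicate 2 the difference was -0.47 (adjusted p = 0.0508). In untreated cells the difference was -0.68 ± 0.16 (adjusted p = 0.0212), and the arms did not overlap. At 8 h it was -0.46 ± 0.16 (adjusted p = 0.0932) and at 24 h -0.37 ± 0.16 (adjusted p = 0.245). The untreated call was lost without siControl replicate 2 or 3 or siPKCiz replicate 1 or 2 (-0.71 to -0.49; adjusted p between 0.0605 and 0.102), without replicate 2 or 3 of every group (adjusted p = 0.255 and 0.245) and with only the compared arrays (adjusted p = 0.0559).

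ADAM23, a neuronal member without protease activity that binds integrins and LGI proteins, was at 632, 679 and 923 in untreated siControl and 496, 549 and 478 in siPKCiz. The 8 h values were 693, 611 and 569 against 489, 533 and 481, and at 24 h 823, 721 and 697 against 573, 607 and 563. The arms did not overlap within any condition. ADAM23 was lower by 0.40 ± 0.067 over the conditions (1.32-fold lower; adjusted p = 0.000358; 0.37 without replicate 1) and passed under each of 28 alternatives (adjusted p up to 0.0166). In untreated cells it was lower by 0.53 ± 0.12 (adjusted p = 0.0145), which was lost without siControl or siPKCiz replicate 3 (-0.49 to -0.37; adjusted p between 0.0691 and 0.0774), without replicate 2 or 3 of every group (-0.65 and -0.33; adjusted p = 0.188 and 0.361) and with only the compared arrays (adjusted p = 0.0629).

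The other members lower over the 3 conditions were ADAM21, ADAM22, ADAMTS9, ADAMTS10 and ADAMTS12. ADAM21, known from testis, was lower by 0.32 ± 0.067 (adjusted p = 0.00225), at -0.34 without replicate 1 and at -0.21 on the log2(value + 50) scale. The call was lost without replicate 2 or 3 (adjusted p = 0.0508 and 0.0586). At 8 h ADAM21 was lower by 0.47 ± 0.12 (adjusted p = 0.0253), a call lost when any array of replicate 2 or 3 was left out (adjusted p between 0.0613 and 0.129) or all arrays of that number (adjusted p = 0.29 and 0.361). Its signal was 72.5 to 131, and probes for it may also read the near-identical pseudogene ADAM21P1. A further probe set, listed for both ADAM21 and ADAM21P1, was left out by the single-symbol rule. ADAMTS12, an enzyme that cuts cartilage oligomeric matrix protein, was lower by 0.31 ± 0.082 (adjusted p = 0.0121), but at -0.13 without replicate 1 (adjusted p = 0.126), and the call was also lost without replicate 2 or 3 (adjusted p = 0.0594 and 0.0581). In untreated cells ADAMTS12 was at 355, 366 and 352 in siControl and 228, 282 and 277 in siPKCiz, with no overlap. The difference there, -0.45, did not pass. ADAMTS10, an enzyme of fibrillin microfibrils, was lower by 0.25 ± 0.074 (adjusted p = 0.0218), at -0.31 without replicate 1. The call was lost without the siPKCiz 8 h replicate 2 (-0.22; adjusted p = 0.0515) and without replicate 2 or 3 (adjusted p = 0.193 and 0.182). ADAMTS9 was lower by 0.21 ± 0.061 (adjusted p = 0.0188), at -0.35 without replicate 1, and the call was lost without replicate 2 or 3 (-0.16 and -0.13; adjusted p = 0.338 and 0.402). ADAM22, a receptor for LGI1 without protease activity, was lower by 0.18 ± 0.053 (adjusted p = 0.0225), and at -0.12 on the log2(value + 50) scale. The call was lost without replicate 1, 2 or 3 (-0.14, -0.22 and -0.18; adjusted p = 0.123, 0.0815 and 0.15), without the siPKCiz 24 h replicate 2 (-0.16; adjusted p = 0.0515) and with quantile normalization (-0.14; adjusted p = 0.0854). Without replicate 2 of every group 2 of the 10 members passed, and without replicate 3 there were 3. The shares of all genes in these settings are not given here, so the counts are read as no result about the members.

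**Figure D4:**
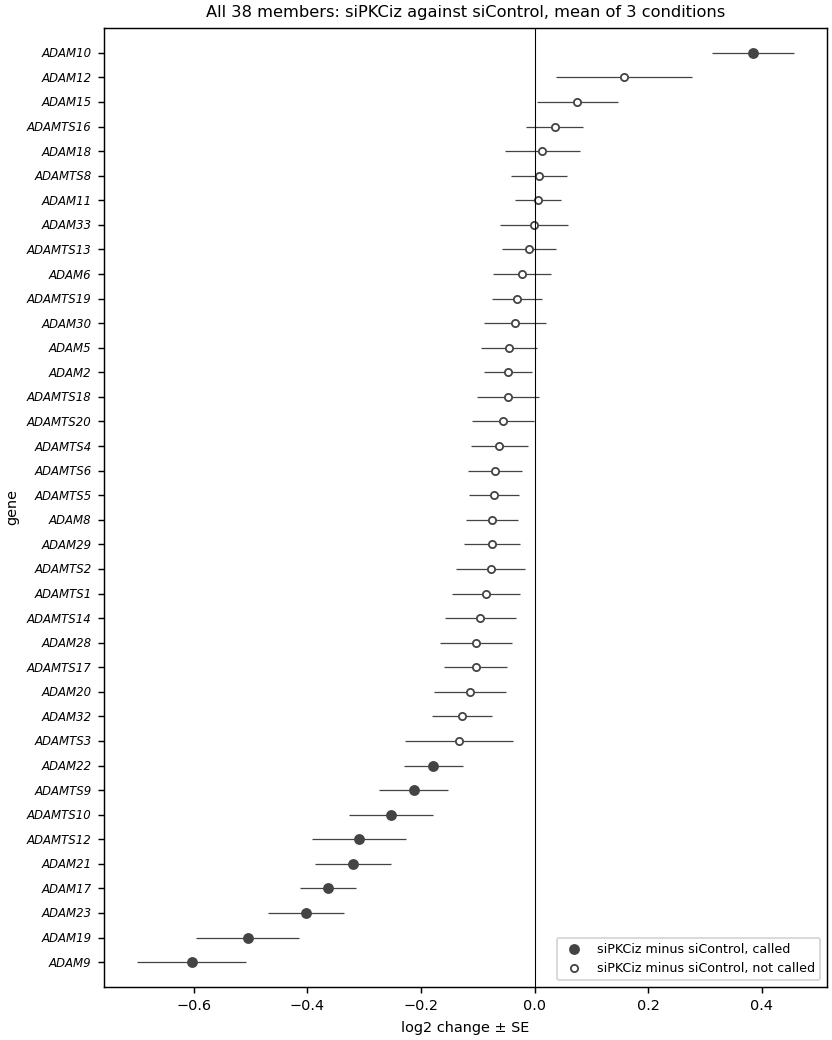
Log2 difference ± SE (x axis) of siPKCiz minus siControl, as the mean of the 3 conditions, for each of the 38 members (y axis); filled points passed at an adjusted p under 0.05. ADAM10 lies highest at 0.38 and ADAM9 lowest at -0.60. Of the 38 values 31 lie below 0 and 7 above it, where 47.9% of all genes lie above 0.

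The response to TGFβ was then compared between the arms. By limma 0 of 38 members and 0 of 18377 genes passed the interaction at 8 h or 24 h, with 2 and 1 members and 625 and 705 genes at an unadjusted p under 0.05. For ADAM19 the rise in siPKCiz exceeded that in siControl by 0.21 at 8 h, with a 95% interval from -0.25 to 0.68, and by 0.30 at 24 h, with an interval from -0.16 to 0.77. Differences of that size could not be resolved with 3 arrays per group. ADAM33, an airway-associated protease, was the member with the smallest p at 8 h, at -0.37 ± 0.15 (limma adjusted p = 1.00).

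Of the genes that control these proteases, 3 of 5 inhibitors were higher after TGFβ at 24 h, beside 5.85% of all genes in siControl and 4.65% in siPKCiz. The same shares stand behind the other list counts at 24 h, with 6.46% and 6.09% of all genes lower. TIMP3, the matrix-bound inhibitor of ADAM17 and of ADAMTS aggrecanases, rose in siControl by 1.94 ± 0.16 at 8 h and 1.85 ± 0.16 at 24 h (adjusted p = 1.52e-06 and 9.63e-07), and in siPKCiz by 1.29 and 1.77. TIMP2 rose by 1.09 ± 0.11 and TIMP4 by 0.45 ± 0.094 at 24 h in siControl, so that 3 of 5 inhibitors rose and 0 fell, in siPKCiz too. TIMP1 and the membrane-anchored RECK did not pass at 24 h in either arm. FURIN, a convertase that removes ADAM prodomains, rose by 0.95 ± 0.13 at 8 h and 0.78 ± 0.13 at 24 h in siControl (adjusted p = 0.000128 and 0.000552), and by 0.77 and 0.75 in siPKCiz. It was the 1 of 6 convertases and tail partners that passed at 24 h in siControl. In siPKCiz SH3PXD2A, the podosome scaffold TKS5, rose as well (0.43 ± 0.12). Between the arms over the 3 conditions, TIMP4 differed by -0.32 ± 0.054 and TIMP3 by 0.30 ± 0.095 in siPKCiz (limma adjusted p = 0.000453 and 0.0327). The differences were -0.35 ± 0.067 for SH3PXD2A, -0.26 ± 0.059 for PCSK5 and 0.12 ± 0.039 for PCSK6, which also passed. Of all genes 11.8% were higher and 8.17% lower in that comparison. By condition, TIMP3 and PCSK5 did not pass. The mean log2 intensity of TIMP3 was 8.40 in siPKCiz against 7.86 in siControl untreated, 9.69 against 9.80 at 8 h and 10.17 against 9.71 at 24 h. SH3PXD2A and PCSK6 passed between the arms in untreated cells (-0.49 ± 0.12 and 0.31 ± 0.068) and did not pass at 8 h or 24 h.

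Of 9 genes for ADAM17 carriers and ADAM10 tetraspanins, 3 rose at 24 h in siControl and 0 fell. They were TSPAN5, a tetraspanin partner of ADAM10 (0.56 ± 0.12; adjusted p = 0.00425), FRMD8, which stabilizes the iRhom and ADAM17 complex (0.38 ± 0.10), and the iRhom RHBDF1 (0.23 ± 0.073). In siPKCiz TSPAN5 rose by 0.67 ± 0.12 and was the 1 that passed. In siPKCiz TSPAN5 was lower by 0.53 ± 0.071 over the 3 conditions (adjusted p = 4.26e-05), TSPAN15 by 0.19 and the iRhom RHBDF2 by 0.26, and TSPAN33 was higher by 0.40 ± 0.081 (adjusted p = 0.00171). The lists of regulators, substrates and relatives had medians at 24 h in siControl of 0.45 for inhibitors, 0.23 for carriers and tetraspanins, 0.18 for convertases and tail partners, -0.16 for shed EGF receptor ligands, 0.01 for other membrane substrates, 0.06 for ADAMTS substrates and 0.03 for relatives, beside -0.01 over all genes.

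**Figure D5:**
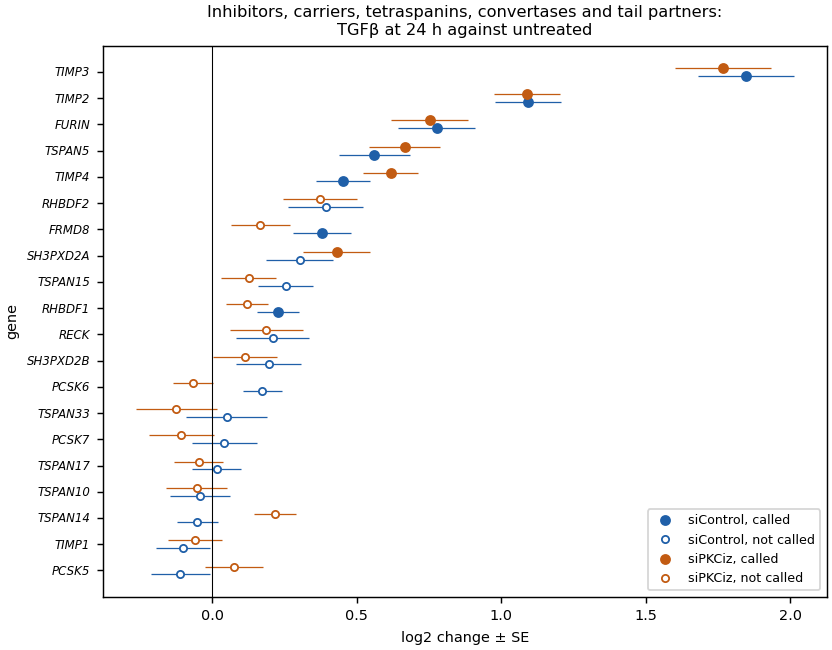
Log2 change ± SE (x axis) at 24 h of TGFβ against untreated in siControl and siPKCiz for 20 genes that regulate these proteases (y axis); filled points passed at an adjusted p under 0.05. TIMP3, TIMP2, FURIN, TSPAN5 and TIMP4 are filled in both arms, with TIMP3 highest at 1.85 and 1.77.

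The genes for shed proteins moved in both directions. Of 8 EGF receptor ligands measured, 2 rose and 2 fell at 24 h in siControl. EGF (0.67 ± 0.12) and NRG1, a substrate of ADAM19 (0.53 ± 0.10), rose, and EREG (-1.01 ± 0.26) and BTC (-0.47 ± 0.10) fell. At 24 h in siPKCiz 1 rose, NRG1 (0.75 ± 0.10), and 1 fell, BTC (-0.34 ± 0.10), and EGF and EREG did not pass. At 8 h in siControl 1 ligand rose and 3 fell, where 5.17% of all genes were higher and 6.18% lower. HBEGF rose by 0.69 ± 0.15, and EREG (-1.06 ± 0.26), NRG2 (-0.47 ± 0.092) and BTC (-0.43 ± 0.10) fell. Over the 3 conditions TGFA was higher in siPKCiz by 0.37 ± 0.090, and HBEGF and NRG2 were lower by 0.32 ± 0.088 and 0.22 ± 0.053. Of 25 other membrane substrates 5 rose and 4 fell at 24 h in siControl, where 12.3% of all genes passed. CDH1, E-cadherin, fell by 1.62 ± 0.17, EPCAM by 1.23 ± 0.27 and CXCL16, a transmembrane chemokine, by 1.02 ± 0.11, while CDH2, N-cadherin, rose by 0.65 ± 0.072. In siPKCiz 4 rose and 4 fell, among them LRP1, an endocytic receptor that takes up ADAMTS enzymes (0.77 ± 0.11), and the interleukin receptor IL6R (-0.77 ± 0.13). LRP1 rose at 24 h in siControl as well (0.45 ± 0.11), whereas IL6R did not pass there. EPCAM did not pass at 24 h in siPKCiz. Over the conditions EPCAM (0.76 ± 0.16), CDH1 (0.49 ± 0.098) and CXCL16 (0.34 ± 0.062) were higher in siPKCiz and IL6R was lower (-0.24 ± 0.075), with 3 higher and 3 lower of 25, where 19.9% of all genes passed, 11.8% higher and 8.17% lower.

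Of 14 substrates of ADAMTS enzymes 2 rose and 0 fell at 24 h in each arm. VCAN, versican, which ADAMTS9 cuts, rose by 1.27 ± 0.17 in siControl (adjusted p = 4.12e-05) and 1.36 ± 0.17 in siPKCiz, and COL1A1, a procollagen chain, by 1.19 ± 0.17 and 1.46 ± 0.17. From 8 h to 24 h VCAN rose by 0.99 ± 0.17 in siControl and by 0.96 ± 0.17 in siPKCiz. Of 7 measured relatives, which are ADAMDEC1 and genes without the protease domain, 0 passed in the 4 TGFβ comparisons (limma). ADAMTSL3 was higher in siPKCiz over the conditions (0.18 ± 0.058).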

How the data were processed

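The deposited values are linear intensity, from 21.2 to 51230. RMA and Partek are named in the submitters' processing notes, with versions not given in the sources used here. No read depth exists for arrays. Log2 was taken once, with no further normalization. Of 28869 probe sets, 19310 had 1 symbol, 1752 several and 7807 none listed; of several probe sets for 1 gene, the one with the highest mean was kept, giving 18377 genes. Using R 4.3.3, limma 3.58.1 estimated the 6 groups' means from the 18 arrays (eBayes; 12 residual and 18.1 total degrees of freedom) and 12 comparisons. The threshold was an adjusted p under 0.05 (Benjamini-Hochberg, all genes together in each comparison); ± is the standard error. The p-values measure the spread between biological replicates of 1 cell line. The fit was tested on simulated data.

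The members, lists and tests were chosen with earlier results of these data known. ADAM19 and each member that passed a comparison were named, with every array given where a passing change was at least 0.5. ADAM12, ADAM15, ADAM17, ADAM10, ADAMTS19 and ADAMTS12 were given by array after their values were seen. From each other list up to 4 passing genes with the largest changes per comparison were named, and not every comparison is given. Genes stated as not passing were added after their values were seen. Alternatives were the replicate number as a block, quantile normalization, median centring, a filter on dim probe sets and log2(value + 50). Others were trend and robust moderation, the arrays of the groups compared alone and all probe sets with 1 symbol. Each replicate number or array was also left out. Promoter sequences came from RefSeq (GRCh38.p14).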

Additional observations from a re-analysis of the deposited data

How the results depend on the processing

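Counts of members that passed were recomputed under each alternative, and no named member changed direction in 599 values of 29 member results, of which 495 kept their call and 104 lost it. Taken over both arms, the replicate numbers did not pair the arrays. Same-numbered arrays had deviations correlated between -0.51 and 0.26, and 0 of 18 arrays correlated best with their own number. Within an arm the number did go along with the level of ADAM9 and PRKCZ. For both genes replicate 1 was lowest in each siControl condition and highest in each siPKCiz condition. A block by number, the same in both arms, cannot take up such a shift. The standard errors over the 3 conditions count all arrays of an arm as independent. With the replicate number as a block, 1 member passed between 24 h and 8 h in siControl in place of 2, 1 between the arms at 8 h in place of 3, and 1 at 24 h in place of 2. The calls that the block ended were those of ADAM15 at 24 h of TGFβ in siControl (adjusted p = 0.0681), ADAMTS9 between 24 h and 8 h (0.0804), ADAM9 between the arms untreated (0.0739) and at 24 h (0.0534), and ADAM10 and ADAM21 between the arms at 8 h (0.0604 and 0.050003). The filter on dim probe sets, which took out the dimmest 25% of genes, kept 21 of the 38 members. ADAMTS6 and ADAMTS19 were removed by it before testing, so their calls were not tested in that setting. It left 1 member between 24 h and 8 h in siControl. With only the arrays of the groups compared, 0 passed there and 0 between the arms at 24 h. Quantile normalization gave 5 between the arms in untreated cells in place of 3. Leaving out 1 replicate number or 1 array gave from 1 to 4 members at 8 h of TGFβ in siControl, 2 to 5 at 24 h, and 2 to 5 at 24 h in siPKCiz. It gave 0 to 3 between 24 h and 8 h in siControl. Between the arms it gave 0 to 5 untreated, 0 to 9 at 8 h, 0 to 6 at 24 h and 2 to 11 over the 3 conditions. The highest counts between the arms at 8 h and 24 h came without replicate 1. Shares of all genes under these alternatives are not given here, so the counts are read as no result about the members. The causes were not tested. No member had a further probe set with 1 symbol, so using all such probe sets changed only the genes tested. Signal over background limits the 27 members dimmer than the array median.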
